A study of Mus musculus with 2 samples.

Results

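The data describe 32 genes of glycolysis and of the response to low oxygen in the mouse tibial fracture callus, the tissue that bridges a healing break, as read by spatial transcriptomics. The genes were chosen by symbol, and 28 of the 32 had a row among the 19430 named genes of the count tables. The rows for Tpi1, Eno1, Ldha and Ldhb were not analysed here. Of the 28, 16 were grouped as glycolysis, 8 as hypoxia response, 2 as alpha subunits of the hypoxia inducible factors, and Pfkm and Eno3 were kept apart as 2 muscle isoforms.

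Both sections came from a single paraffin block holding the callus of 1 control mouse, Nf1+/flox without Cre, and of 1 Postn-cre;Nf1flox/- littermate, called Nf1Postn. Both mice were female and 8 weeks of age, and their tibiae had been fractured 10 days before collection. Control cells kept a wild-type and an unrecombined floxed Nf1 allele, whereas in Nf1Postn the cells outside the Cre lineage had the floxed allele alone beside a null one. Cre was driven by the periostin promoter, which is active in the periosteum and more broadly after fracture. Tissue was decalcified in 14% EDTA for 3 days before embedding.

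Glycolysis turns glucose into pyruvate in the cytosol and needs no oxygen. Cells short of oxygen stabilise the alpha subunits HIF-1 alpha and HIF-2 alpha, encoded by Hif1a and Epas1, largely at the level of the protein. These factors bind short DNA elements with the core ACGTG or GCGTG and raise transcription of glucose transporters, glycolytic enzymes, the lactate exporter Slc16a3, and genes such as Bnip3 and Car9. Cartilage is an avascular tissue whose chondrocytes depend on HIF-1 alpha to survive and on glycolysis for energy. Muscle fibers, by contrast, carry their own isoforms of phosphofructokinase and enolase.

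The RefSeq promoter sequences (GRCm38.p6) of 7 members are shown as a choice among the genes with large or regular differences in the sections. Others with such differences, Pfkl among them, are not shown. Bnip3, Slc2a1, Pgk1 and Slc16a3 were higher in cartilage and again in its interior, Car9 and Ankrd37 were among the members with the highest ratios, and Car12 was higher in the cartilage interior. Each was located by exact match in GRCm39 and is written 5′ to 3′ on the strand of its gene, with capitals marking ACGTG or GCGTG, or their reverse complements CACGT and CACGC. Windows inside a gene were kept to 25 bases.
Bnip3, chr7:138511240-138511385, minus strand: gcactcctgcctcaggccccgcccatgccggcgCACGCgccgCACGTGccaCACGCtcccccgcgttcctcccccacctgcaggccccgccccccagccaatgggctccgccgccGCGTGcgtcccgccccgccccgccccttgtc
Slc2a1, chr4:118965792-118965917, plus strand: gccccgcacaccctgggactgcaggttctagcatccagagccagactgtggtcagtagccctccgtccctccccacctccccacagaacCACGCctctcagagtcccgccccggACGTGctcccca
Pgk1, chrX:105230556-105230705, plus strand: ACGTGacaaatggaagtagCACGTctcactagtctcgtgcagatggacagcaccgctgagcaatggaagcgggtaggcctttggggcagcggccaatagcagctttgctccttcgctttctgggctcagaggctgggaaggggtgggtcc
Slc16a3, chr11:120839861-120839885, plus strand: cggtgACGTGcgcgggggACGTGcc
Car9, chr4:43507001-43507025, plus strand: tccgatgCACGTacagcccgtccac
Ankrd37, chr8:46452888-46452912, minus strand: cacatgtcagtgtttgggtACGTGa
Car12, chr9:66620818-66620967, plus strand: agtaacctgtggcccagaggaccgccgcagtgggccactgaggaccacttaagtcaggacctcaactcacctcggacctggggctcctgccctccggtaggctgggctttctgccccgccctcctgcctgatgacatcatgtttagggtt
In Bnip3 the letters CACGTG hold the core on both strands at overlapping positions. Over 300 bases around each start, 33 of 42 member promoters held at least 1 of these cores, against 43.8% of 32851 promoters in the table. Counted by gene, 25 of 29 matched members held the core in some promoter (86.2%), against 46.7% of 27025 genes. No core was present in the 300 bases of Car12. The member promoters include those of Tpi1, Eno1, Ldha and Ldhb, and several starts of some genes are counted separately. The members were listed as genes of these pathways and base composition was not matched, so these shares are no independent support. A match of 5 letters is a description of the sequence and not a binding site.

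The 2 sections held 6380 spots, each of which can cover several cells. The control callus had 1700 and 1778 spots with medians of 7053 and 5718.5 UMIs (unique molecular identifiers, 1 per captured probe pair), and the Nf1Postn callus had 1341 and 1556 spots with medians of 2030 and 3239.75. The targeted gene Nf1 gave 87.8 and 79.0 CPM (counts per 1000000 UMIs) in the control callus and 65.6 and 49.6 in Nf1Postn. The sources used here do not place its probes relative to the deleted exons, so these levels do not check the genotype labels. The sections shared 2711 spot barcodes, which are fixed positions of the slide design and not shared cells. With 1 mouse per genotype no test between genotypes was possible. Values are pooled CPM of each section, intervals cover counting error only, and a member is called different where its ratio was at least 1.5-fold the same way in both sections with at least 50 UMIs over the groups compared in each. Members with that many UMIs are called tested, which refers to this rule and to no statistical test. Fewer cells of a type and less RNA per cell cannot be told apart in spots. Probes capture genes unequally, so levels are compared between regions for the same gene and never between genes.

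Among the 9 regions with at least 20 control spots in both sections, which were set by clustering without the members, the summed hypoxia response was highest in cartilage. In the immature cartilage region, led by Ucma and Acan (169 and 77 control spots), the 8 genes summed to 578 CPM in section 1 and 498 in section 2. The hypertrophic cartilage region, led by Col10a1 and Ihh (260 and 123 spots), gave 486 and 529. Woven bone, led by the osteoclast gene Acp5 and the osteoblast gene Bglap (438 and 314 spots), gave 309 and 332. The other 6 regions lay between 219 and 402, below both cartilage regions in each section, although the interval of the highest of them (Angptl7-Cilp2 in section 1, 292 to 540) overlapped theirs. Mature muscle, which lay mostly in Nf1Postn, came near cartilage, with 464 and 525 CPM in the Nf1Postn spots of its region led by Myh7 and Myot. Pooled over the sections, immature cartilage held 554 CPM (530 to 579) against 318 (305 to 332) in woven bone, a log2 ratio of 0.80 (0.71 to 0.89). The ratio of hypertrophic cartilage to woven bone was 0.65, but averaging log2(CPM + 1) over single spots turned it to -0.34, where the median spot held 4201 UMIs in hypertrophic cartilage and 8831 in woven bone. The cartilage regions made up 18.1% of control spots and 20.5% of control UMIs and held 30.9% of hypoxia response UMIs, with 40.2% and 19.4% in the separate sections.

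**Figure D1:**
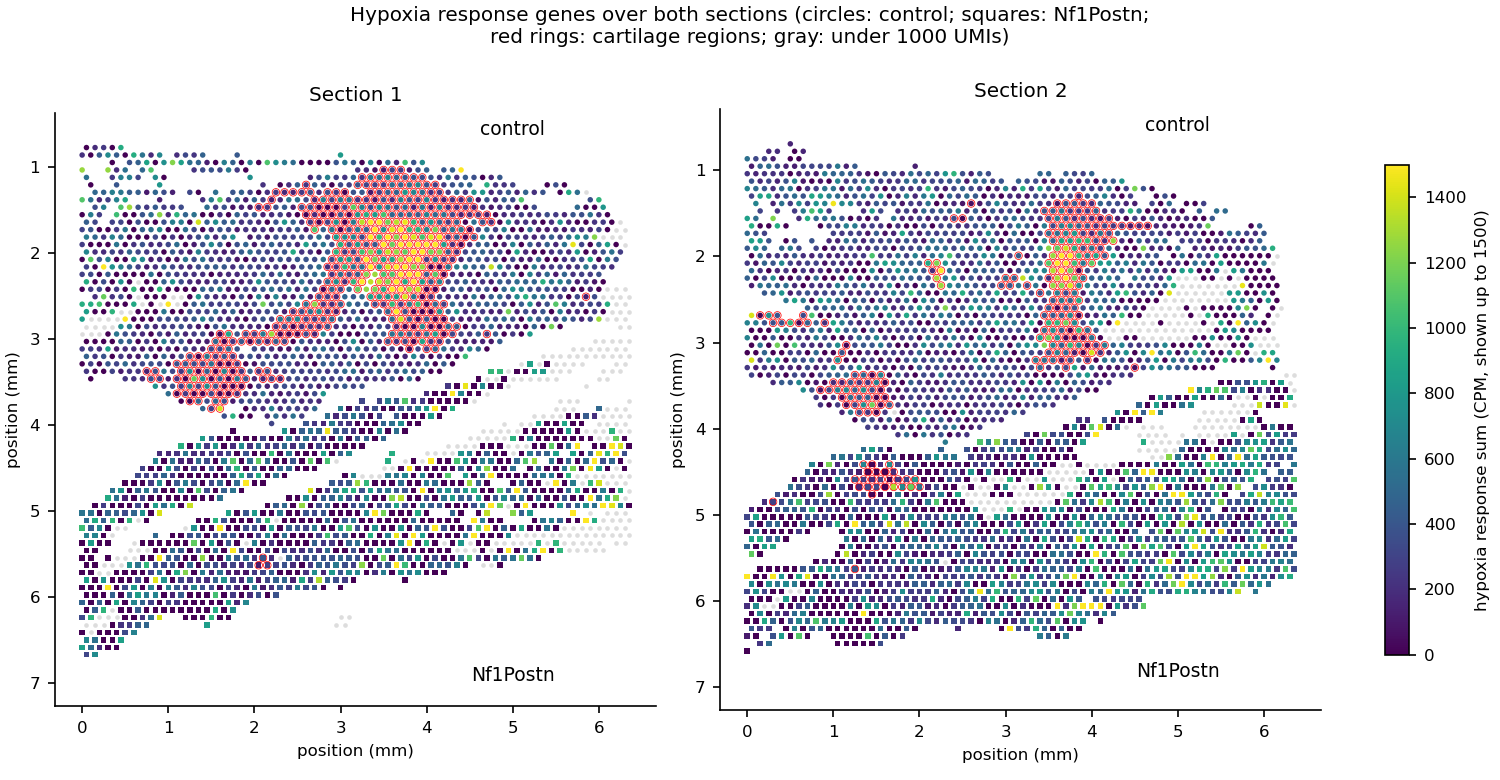
Summed CPM of the 8 hypoxia response genes in each spot of both sections, with axes in mm, circles for control spots, squares for Nf1Postn spots, red rings for the 2 cartilage regions and gray for spots under 1000 UMIs. In the control callus of section 1 most of the highest values lie inside the cartilage, in section 2 they lie inside and outside it, and high values in Nf1Postn are scattered through shallow spots.

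The map of hypoxia response sums by spot placed most of the high control values of section 1, and fewer of those of section 2, in cartilage. Of the 100 control spots with the highest sum among those of at least 1000 UMIs, 71 in section 1 and 40 in section 2 were cartilage, where 25.9% and 11.8% of such spots were cartilage. Among the 9 regions, summed glycolysis was highest in regenerating muscle (3632 and 3629 CPM), led by the embryonic and perinatal myosins Myh3 and Myh8. The mature muscle region led by Myh7 and Myot, with 89 and 16 control spots, was higher still, at 6670 and 6181 CPM in the control and 6956 and 7182 in Nf1Postn. Immature cartilage followed in section 1 with 3388 CPM and reached 2937 in section 2, where the Mmp3-Il1rn region gave 3121 and hypertrophic cartilage 3049. Woven bone was at 2074 and 1933. Aldoa was part of these sums, at 1104 CPM pooled in regenerating muscle against 193 in immature cartilage. The order of the regions without Aldoa was not computed. The pooled log2 ratio of immature cartilage to woven bone was 0.69 (0.66 to 0.73) for glycolysis. The Mmp3-Il1rn region held 31230 CPM of 10 muscle marker genes pooled against 4262 in immature cartilage, and the part of muscle RNA in its glycolysis level was not tested.

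**Figure D2:**
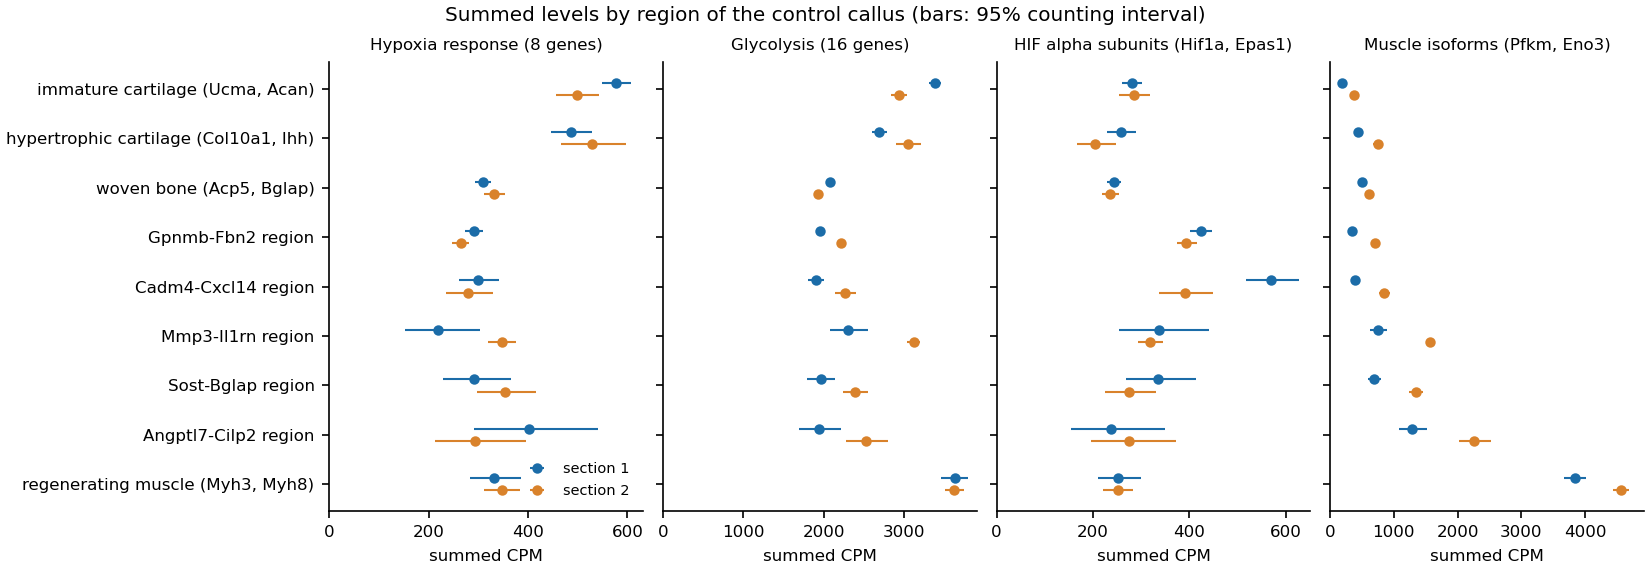
Summed CPM of the 4 gene groups in 9 regions of the control callus, 1 point per section with its 95% counting interval. Hypoxia response is highest in the 2 cartilage regions, glycolysis in regenerating muscle with immature cartilage next in section 1, and the muscle isoforms Pfkm and Eno3 stand apart in regenerating muscle.

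Among the glycolysis members tested, those of glucose uptake (Slc2a1) and lactate export (Slc16a3) differed most between immature cartilage and woven bone. Tpi1, Eno1, Ldha and Ldhb were not among them. Slc16a3, the transporter that releases lactate, was at 138 and 98.9 CPM in immature cartilage against 21.1 and 17.4 in woven bone, a 6.46-fold pooled difference. Slc2a1, the glucose transporter GLUT1, was at 223 and 165 CPM against 59.9 and 57.6, a pooled log2 ratio of 1.80. Neither gene's sections overlapped between the regions, which was not counted over all genes. Slc2a3, another glucose transporter, of sparse counts, was at 10.2 and 9.33 CPM against 8.79 and 8.68 and was too low to be tested.

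The enzymes between these ends moved unevenly. Pfkl, the liver type of the phosphofructokinase that commits sugar to glycolysis, was at 58.5 and 60.6 CPM in immature cartilage against 19.2 and 18.1 in woven bone. Pfkp, the platelet type, had a log2 ratio of 1.09. Pgk1, which makes ATP in the payoff phase, was at 101 and 84.9 CPM against 38.3 and 39.6. Pkm, pyruvate kinase, the last step, was at 1341 and 1181 CPM against 697 and 635, and Pgam1, phosphoglycerate mutase, had a log2 ratio of 1.01. These were joined by no hexokinase: Hk1 had a log2 ratio of 0.42 and Hk2, the inducible isoform, 0.63, both under the fold required in at least 1 section. Gpi1, which isomerises glucose 6-phosphate, differed by 0.05 (log2). Pfkfb4, which sets the activator of phosphofructokinase, was lower in immature cartilage, at 23.2 and 20.5 CPM against 42.8 and 48.3.

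Among the hypoxia response genes, Bnip3 and the carbonic anhydrase Car9 stood out. Bnip3, a mitochondrial protein that triggers mitophagy, was at 80.5 and 68.1 CPM in immature cartilage against 18.3 and 13.5 in woven bone, a log2 ratio of 2.23. Car9, which acidifies the outside of hypoxic cells, was at 43.6 and 30.8 CPM against 6.18 and 6.25, a ratio of 2.68. Egln1, the prolyl hydroxylase PHD2 that marks HIF alpha for destruction, had a ratio of 0.91. Ankrd37, a HIF target, and Egln3, the hydroxylase PHD3, were each under 50 UMIs in a section and so untested, at 32.6 and 22.4 CPM against 6.89 and 7.99 for Ankrd37 and 16.9 and 23.3 against 4.75 and 8.33 for Egln3. Pdk1, which keeps pyruvate out of the mitochondrion, had a log2 ratio of 0.60 and passed the fold in section 1 alone. Car12, another membrane carbonic anhydrase, did not pass in either direction, at 98.6 and 94.2 CPM against 83.2 and 112. Ndrg1 went the other way, at 18.5 and 19.6 CPM against 36.1 and 32.3.

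The alpha subunits parted between the regions. Hif1a was at 221 and 230 CPM in immature cartilage against 105 and 105 in woven bone (log2 ratio 1.09). Epas1, encoding HIF-2 alpha, was at 59.7 and 55.0 CPM against 139 and 130 (log2 ratio -1.21). The sum of both was therefore close in the regions, at 280 and 285 CPM against 243 and 235. Of the UMIs of the pair, Hif1a took 79.3% in immature cartilage (76.7 to 81.8), 59.9% in hypertrophic cartilage and 43.7% in woven bone.

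In all, 11 of the 23 members tested between immature cartilage and woven bone were higher in cartilage, where 5.97% of the 8513 genes tested were, and 5 were lower, where 18.1% were. The median log2 ratio was 0.63 over these members and -0.23 over all genes tested. Of 32 further hypoxia genes in the tables, 28 were tested and 9 were higher and 4 lower. These included Ndufa4l2, a brake on mitochondrial complex I, at 307 and 272 CPM against 66.5 and 72.6, and Fam162a at 403 and 319 against 142 and 147, while Tfrc, the transferrin receptor, was lower at 50.3 and 57.8 against 152 and 120. Of 30 further genes of glucose metabolism 10 were tested, none was higher and Dlat was lower. Endothelial markers were also lower in immature cartilage, at 346 CPM pooled over 8 genes against 800 in woven bone, and their part in the ratios was not tested.

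**Figure D3:**
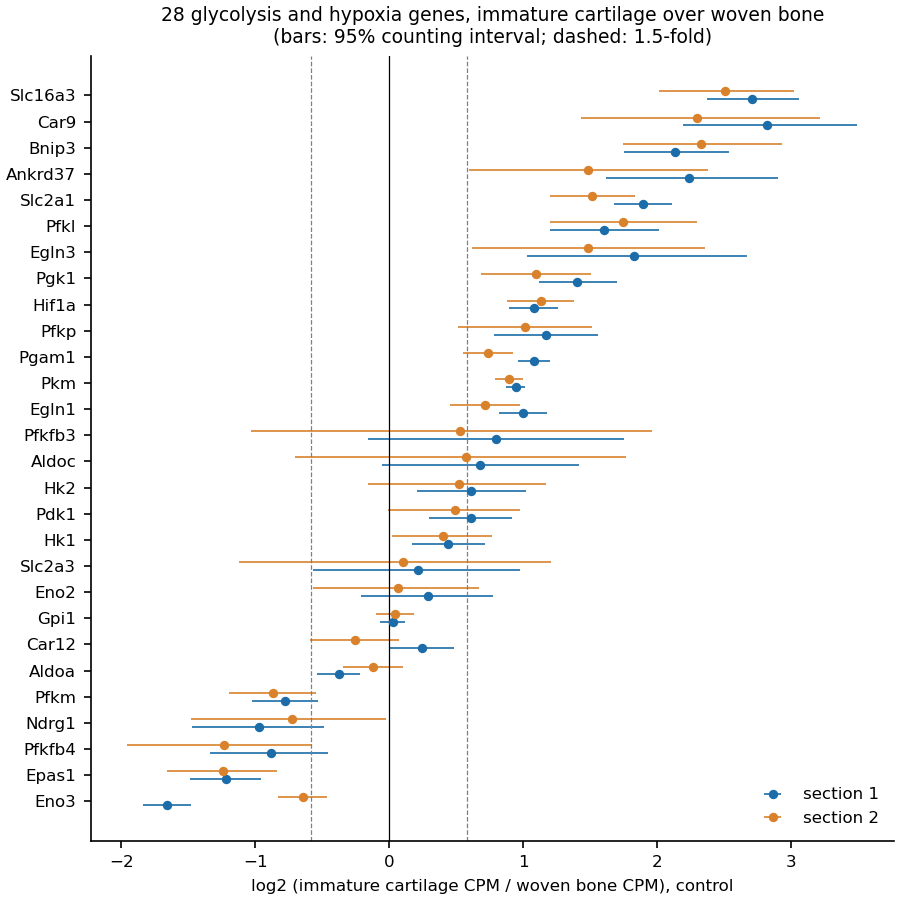
Log2 ratio of immature cartilage to woven bone for the 28 members in the control callus, 1 point per section with its 95% counting interval, and dashed lines at 1.5-fold. Slc16a3 and Car9 are among the 3 farthest to the right in both sections, joined by Ankrd37 in section 1 and Bnip3 in section 2, and Eno3, Epas1, Pfkfb4, Ndrg1 and Pfkm lie farthest to the left.

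Hypertrophic cartilage shared part of this pattern. Against woven bone 6 of 22 members tested were higher, where 2.79% of 8094 genes were, and 0 were lower, where 8.85% were. The 6 were Bnip3, Pfkl, Pfkp, Pkm, Slc2a1 and Slc16a3. Bnip3 was at 81.4 and 106 CPM there, the highest of the 9 regions in both sections. Between the cartilage regions Pfkl and Slc16a3 were higher in immature cartilage and Pfkm and Eno3 lower, 2 each of 20 members tested, where 7.46% and 6.83% of 4917 genes were. Slc16a3 was at 42.8 and 46.9 CPM in hypertrophic cartilage. Muscle markers were at 10872 CPM in hypertrophic and 4262 in immature cartilage, beside the lower Pfkm and Eno3 of the latter. Of the immature cartilage spots of section 1, 55.6% had been labelled ossifying perichondrium by the authors, and of the hypertrophic spots 76.9% had been labelled cartilage.

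The Gpnmb-Fbn2 region was led by Gpnmb, Fbn2 and Ccl7, and 92.7% of its section 1 control spots had been labelled ossifying perichondrium by the authors. Against it, 12 of 24 members tested were higher in immature cartilage and 4 were lower, where 4.16% and 28.2% of 9358 genes were. Of the 7 hypoxia response genes tested, 6 were higher (Ankrd37, Bnip3, Car12, Egln1, Egln3 and Pdk1) and Ndrg1 was lower. Car12 was at 98.6 and 94.2 CPM in immature cartilage against 20.8 and 23.1, whereas its level in woven bone had been close to that of cartilage. Hif1a was at 221 and 230 CPM against 261 and 241, a small difference with the Gpnmb-Fbn2 region the higher. That region had the highest Hif1a of the 9 in both sections, and its hypoxia response sums of 291 and 264 CPM were the next to lowest of the 9 in section 1 and the lowest in section 2. The order of the regions by Hif1a transcript thus differed from their order by hypoxia response.

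Over the 9 regions, 20 of the 28 members were highest in the same region in both sections. Immature cartilage was highest for 8 of them (Pfkl, Pgk1, Pgam1, Pkm, Slc16a3, Pdk1, Egln1 and Ankrd37) and regenerating muscle for 7 (Hk2, Gpi1, Pfkfb4, Aldoa, Pfkm, Eno3 and Egln3). Ndrg1 and Epas1 were highest in the Cadm4-Cxcl14 region, Bnip3 in hypertrophic cartilage, Hif1a in the Gpnmb-Fbn2 region and Hk1 in the Angptl7-Cilp2 region. The same counts over all genes were not made, so these describe the members without a background. As a description over these 9 regions, which share libraries and base composition, Epas1 followed the endothelial markers (Pearson r of log2 CPM 0.98) and so did Ndrg1 (0.84). Car9 (-0.90), Egln1 (-0.87), Pdk1 (-0.85) and Bnip3 (-0.84) ran opposite to them. So did members of glycolysis, among them Pfkl (-0.81) and Pgk1 (-0.77). Egln3 of the hypoxia response had an r of 0.13, and Hif1a had an r of -0.12. No background of r over all genes is given. Epas1 is known as the alpha subunit of endothelial cells, and it was at 335 and 208 CPM in the Cadm4-Cxcl14 region, where endothelial markers reached 1281 CPM.

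Inside the cartilage, levels were followed from its border inward in steps of 1 spot (100 µm). In section 1 the hypoxia response sum was 345 CPM in border spots, 452 and 660 in the next rings and 1034 at 4 or more spots (177, 110, 67 and 75 spots). In section 2 it was 386, 671, 651 and 609 (120, 57, 19 and 4 spots), so the step inward was present but levelled from there on, with few spots in the deeper rings. Interior spots at least 3 from the border had 2.35-fold the sum of border spots, a pooled log2 ratio of 1.23 (1.11 to 1.36), with 1.36 in section 1 and 0.73 in section 2. Glycolysis went from 2327 to 4703 CPM in section 1 and from 2589 to 3171 in section 2, with interior to border ratios of 0.91 and 0.40 (log2). Endothelial markers went from 514 to 240 CPM in section 1 and from 461 to 101 in section 2.

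Of the members, 6 of 17 tested were higher in the interior, where 2.28% of 3899 genes were, and 0 were lower, where 12.2% were. Slc2a1 was at 341 and 219 CPM in the interior against 117 and 131 at the border. Slc16a3 was at 182 and 108 CPM against 54.7 and 67.9. Bnip3 was at 150 and 99.8 CPM against 35.5 and 55.2, and Car12 at 154 and 184 against 54.7 and 67.9. Car12 was thus the hypoxia response gene with the closest ratios in both sections, at 1.496 and 1.44 (log2). Pgk1 (125 and 127 CPM against 61.9 and 54.1) and Pfkl (67.0 and 76.8 against 36.1 and 38.0) completed the 6. With section 1 alone 14 members were higher and 1 lower, with section 2 alone 6 and 1, and at a minimum of 200 UMIs 0 were higher. The numbers tested and the shares of all genes called in these settings are not given here. The interior held 23 spots in section 2, which limits how many members reach 200 UMIs. The median log2 ratio was 0.90 over the members tested and -0.32 over all genes tested.

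Other members were steeper in section 1 than in section 2. Car9 went from 12.02 CPM in border spots to 112 in the deepest spots of section 1 and from 20.7 to 50.7 in section 2, and its counts were too few for a call. Egln1 went from 146 to 407 CPM in section 1 and from 155 to 186 in section 2. Hif1a did not follow them. Its level was 197, 206, 191 and 201 CPM over the rings of section 1 and 199, 192, 204 and 220 in section 2. Pooled over the sections, 14 of the 28 members increased at each step inward, and Pfkm and Eno3 decreased at each. The same count over all genes was not made. The deepest ring held 75 spots of section 1 and 4 of section 2, so the pooled values there rest mostly on section 1.

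The cartilage markers climbed over the same distance. The 10 cartilage marker genes were 2.77-fold and 2.94-fold higher in the interior than at the border, and per 1000 of their UMIs the hypoxia response gave 4.40, 3.10, 3.5 and 4.38 UMIs over the rings of section 1 and 4.47, 3.21, 2.71 and 1.99 in section 2. Relative to cartilage markers, the deepest ring was thus no higher than the border in either section, although section 1 increased from the second ring inward and section 2 decreased at each step. Per 1000 cartilage marker UMIs, glycolysis gave 29.7 at the border and 19.9 in the deepest ring of section 1. In section 2 it gave 29.9 and 10.4. Fewer chondrocytes in border spots and a lower level per chondrocyte cannot be told apart. Of 32 further hypoxia genes in the tables, 5 of 21 tested were higher inside and 0 lower, among them Ndufa4l2 (503 and 353 CPM against 119 and 160) and Plod2, a collagen lysyl hydroxylase (677 and 710 against 294 and 343). In immature cartilage alone the sum went from 353 CPM at the border to 737 in the third ring and 978 in the deepest of section 1, and from 347 to 653 and 609 in section 2. In hypertrophic cartilage alone it went from 328 to 503 and 1259 CPM in section 1, and from 452 to 637 at the third ring, with 7 spots, in section 2, where no deeper spot lay.

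**Figure D4:**
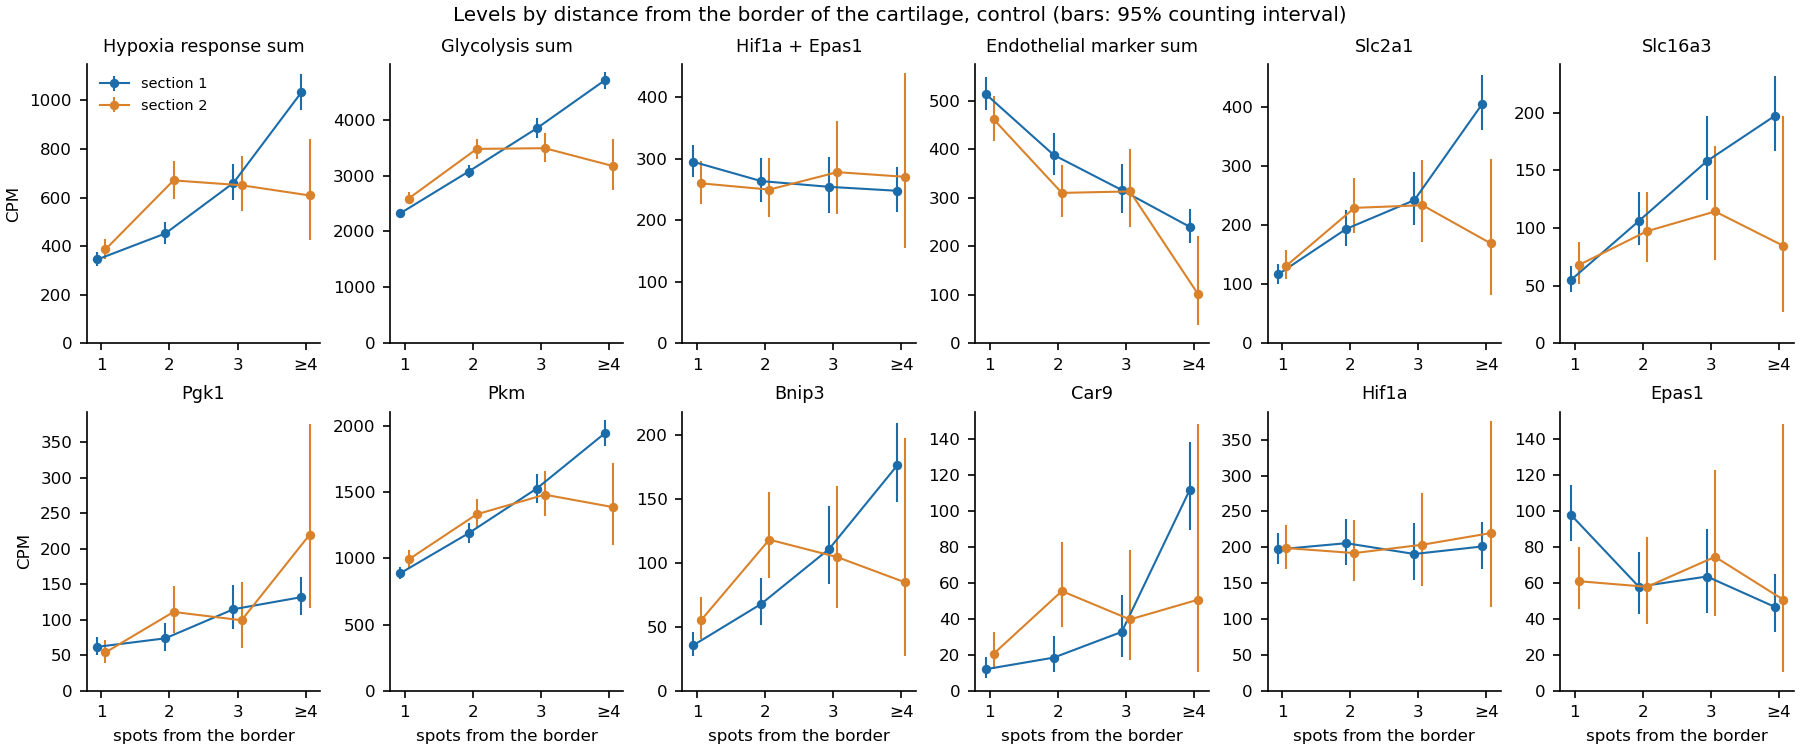
CPM in cartilage spots of the control callus by distance from the border in spots of 100 µm, 1 line per section with 95% counting intervals. The hypoxia response and glycolysis sums, Slc2a1, Slc16a3, Bnip3 and Car9 climb through section 1 and level off in section 2, the endothelial markers decline, and Hif1a stays between 191 and 220 CPM in every ring.

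The distance from the fracture plane was known for 1344 control spots of section 1. In the nearest bin (297 spots) the hypoxia response summed to 561 CPM, then 330, 305, 276 and 287 outward. Glycolysis was 3220 CPM in the nearest bin and 1894 in the farthest, and the summed alpha subunits were 365 and 349. Nearest over farthest, Car9 had a log2 ratio of 3.15 (37.9 against 4.26 CPM, interval 1.99 to 4.62). Ankrd37 had 2.73 (33.0 against 4.97) and Aldoc 2.72 (14.1 against 2.13). Car9, Ankrd37 and Aldoc rested on 6, 7 and 3 UMIs in the farthest bin. Slc16a3 had a ratio of 2.30 (122 against 24.8), Bnip3 2.26 (81.7 against 17.0), Slc2a1 1.87 (230 against 63.2) and Pgk1 1.82 (82.9 against 23.4). Hif1a was higher near the plane (278 against 148 CPM) and Epas1 lower (87.7 against 202). Also lower near the plane were Eno3 (log2 ratio -1.62), Pfkm (-1.17), Pfkfb4 (-0.73), Aldoa (-0.63) and Ndrg1 (-0.61). The same ratios over all genes were not computed.

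Cartilage markers went from 108050 to 7023 CPM over the same bins and endothelial markers from 509 to 882, so tissue composition changed along this axis. Within spots the authors labelled cartilage the hypoxia response was 1120 CPM nearest the plane, 489 in the next bin and 270 in the third. Within ossifying perichondrium it was 371 nearest and 242 farthest. Within woven bone, which had at least 20 spots from the next bin outward, it ranged from 288 to 329 CPM with no order. Near over far, the log2 ratio was 2.02 within cartilage (against spots at 10 or more), 0.62 within ossifying perichondrium and 0.27 within progenitor spots, and a single section gives these no replicate.

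Among the members tested in regenerating muscle, the muscle isoforms were the farthest above woven bone. Eno3, the muscle enolase, was at 2934 and 3476 CPM there against 374 and 440 in woven bone, and Pfkm, the muscle phosphofructokinase, at 903 and 1089 against 124 and 163. Aldoa, the aldolase of muscle, was at 1072 and 1119 CPM against 240 and 230. Of 22 members tested 10 were higher than in woven bone and 2 lower, where 11.9% and 11.8% of 8627 genes were. The 10 included Slc16a3 (65.6 and 88.0 CPM), Slc2a1 (165 and 103) and Bnip3 (31.8 and 26.1), which were also called higher in both cartilage regions over woven bone. Pgam1 and Car12 were the lower ones, at 147 and 99.6 CPM against 245 and 219 for Pgam1 and 15.9 and 17.4 against 83.2 and 112 for Car12. Egln3 was at 51.7 and 63.8 CPM against 4.75 and 8.33 but had under 50 UMIs in a section. Of 12 further genes of glucose metabolism tested, 8 were higher, with Pgam2, the muscle phosphoglycerate mutase, at 949 and 1030 CPM against 122 and 131, and Slc2a4, the insulin responsive transporter GLUT4, at 223 and 192 against 34.9 and 35.1.

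The make-up of the phosphofructokinase family, as shares of its UMIs that can be compared between regions only, marked the tissues. Pfkl took 30.9% (27.5 to 34.5) in immature cartilage, 10.2% (8.60 to 11.95) in woven bone and 1.64% (1.08 to 2.37) in regenerating muscle. Pfkm took 40.6%, 76.0% and 95.7%. Pfkp took 28.5%, 13.9% and 2.67%. Hk2 took 78.1% of the hexokinase UMIs (69.4 to 85.3) in the control muscle region led by Myh7 and Myot, and 30.5% (26.2 to 35.1) in immature cartilage. Intervals of shares are exact binomial and cover counting error only.

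The comparison of genotypes asks whether these genes differ between the control and the Nf1Postn mouse beyond the change of tissue. Loss of Nf1 in the Postn lineage, the null allele in all Nf1Postn cells and the presence of Cre cannot be told apart in it. Cartilage itself could hardly be compared, since Nf1Postn had 29 spots in the cartilage regions (3 and 26) against 629 in the control. In them the hypoxia response summed to 241 and 309 CPM, against 549 and 508 in the control cartilage. Muscle regions made up 58.5% of Nf1Postn spots and 11.7% of control spots, and they held 79.9% and 14.5% of the glycolysis UMIs.

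Over all spots, 9 members were higher in Nf1Postn and 4 lower of 28 tested, where 8.2% and 6.37% of 11851 genes were. Eno3 was at 2712 and 4629 CPM against 601 and 939, Aldoa at 1109 and 1825 against 332 and 428, and Hk2 at 66.1 and 130 against 34.9 and 34.0. Gpi1, Pfkfb3, Pfkfb4, Pgk1, Pfkm and Egln3 made up the rest of the 9. Hif1a was at 97.3 and 84.2 CPM in Nf1Postn against 176 and 170 in the control, and Car12 at 26.9 and 26.2 against 61.6 and 63.0, with Aldoc and Pgam1 also lower. Without section 1, 7 members were lower, a count given without the share of all genes called in that setting. The all-spot log2 ratio of glycolysis, a sum that includes Aldoa, was 0.79, and outside the muscle regions it was -0.13. Outside the muscle regions 2 members, Pfkm and Eno3, were higher and 2, Aldoc and Bnip3, lower of 28 tested, where 6.44% and 1.6% of 11467 genes were. Muscle markers were still higher in Nf1Postn in those spots, by 1.47 and 0.89 (log2). Bnip3 was at 23.3 and 18.5 CPM there against 39.5 and 30.5, and the control spots included the cartilage.

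In the Gpnmb-Fbn2, Cadm4-Cxcl14, Mmp3-Il1rn and Angptl7-Cilp2 regions 22, 13, 7 and 6 members were tested and 0 were called in either direction. By section, the Gpnmb-Fbn2 region had 20 and 43 Nf1Postn spots against 288 and 325 control spots. The Cadm4-Cxcl14 region had 123 and 86 against 128 and 87. The Mmp3-Il1rn region had 36 and 76 against 32 and 382, and the Angptl7-Cilp2 region 60 and 126 against 87 and 137. The UMI minimum applied to both genotypes together, so a member could be tested mostly on control UMIs. The lack of calls therefore does not show that levels were equal. Of the genes tested in these regions, 1.26%, 1.54%, 0.38% and 2.88% were higher in Nf1Postn and 3.87%, 2.34%, 1.62% and 4.12% were lower. In the Sost-Bglap region Epas1 was the single member called of 12, at 82.7 and 91.3 CPM in Nf1Postn against 213 and 165. There 1.16% of 2836 genes were higher and 1.48% lower. The globin genes Hbb-bs and Hba-a2 led this region, ahead of Mepe, Bglap and Sost. Of 4 further glucose metabolism genes tested there, Bpgm alone was called, at 124 and 106 CPM in Nf1Postn against 39.4 and 59.3. The part of blood RNA in the Epas1 ratio was not tested. In regenerating muscle Ndrg1 was the single member called of 18, at 24.8 and 20.4 CPM against 65.6 and 51.2, where 0.812% of 5051 genes were higher and 2.53% lower. With 1 call among so few members there was no share to set against these backgrounds.

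The hypoxia response sum had log2 ratios of Nf1Postn to control between -0.54 and 0.25 over the 6 regions and both sections, and its sign differed between sections in the Gpnmb-Fbn2, Mmp3-Il1rn and Sost-Bglap regions. Glycolysis had ratios between -0.36 and 0.41, with both sections above 0 in regenerating muscle (0.28 and 0.41) and both below 0 in the Cadm4-Cxcl14 region. In regenerating muscle Gpi1 was at 1270 and 1316 CPM against 847 and 834, with the fold missed narrowly in section 1, and muscle isoforms were higher too. The summed alpha subunits were lower in Nf1Postn in both sections of 5 of the 6 regions, from -0.16 to -1.03, and above 0 in section 1 of the Angptl7-Cilp2 region (0.12). Of the 8 hypoxia response genes, 0 were tested in the Mmp3-Il1rn and Angptl7-Cilp2 regions. In the Cadm4-Cxcl14 and Sost-Bglap regions 2 were tested. Neither alpha subunit was tested in the Angptl7-Cilp2 region. Depth differed between the genotypes and every ratio rests on 1 mouse of each.

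**Figure D5:**
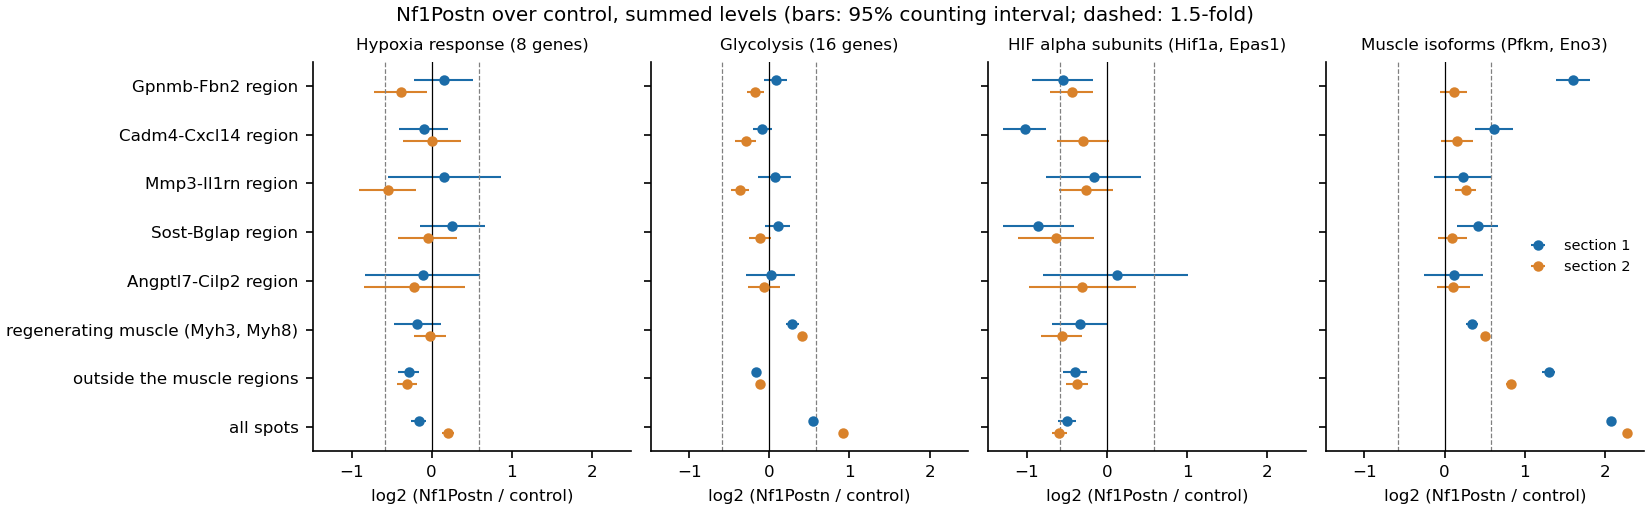
Log2 ratio of Nf1Postn to control for the 4 summed gene groups in 6 regions, outside the muscle regions and over all spots, 1 point per section with its 95% counting interval and dashed lines at 1.5-fold. In the 6 regions the points of the hypoxia response and glycolysis sums lie within 1.5-fold. The alpha subunits lie mostly below 0, and the muscle isoforms are far above 0 over all spots.

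Slc2a1 in the Cadm4-Cxcl14 region differed between the control sections. It was at 83.8 CPM in section 1 and 417 in section 2 of the control, and at 107 and 58.6 in Nf1Postn. In section 2 of the control, 10 of the 87 spots held 128 of the 206 Slc2a1 UMIs (62.1%). The 10 highest spots of the other groups held 35.5% in section 1 of the control and 42.4% and 46.2% in Nf1Postn. Without the 10 highest spots the region was at 58.3 and 179 CPM in the control and 67.9 and 36.5 in Nf1Postn, so section 2 of the control was the highest with and without them. Genes chosen after their values were seen were also high in the 10 highest spots of section 2 of the control. There the tight junction gene Cldn1 was at 382 CPM against 29.8 in the other spots and the integrin Itgb4 at 469 against 80.2. In section 1 of the control Cldn1 was at 18.3 CPM against 20.4 and Itgb4 at 73.2 against 67.1. In the sections of Nf1Postn Cldn1 was at 244 and 182 CPM against 122 and 123, and Itgb4 at 122 and 149 against 87.9 and 60.0. The share of all genes that were higher in such spots was not computed.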

How the data were processed

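Formalin-fixed callus sections were hybridized with Visium FFPE probes. Per the labels, Space Ranger 1.3.0 and the mm39 genome were used, and the deposited estimated counts are UMIs per gene and spot without normalization. In 9 genes that join several Ensembl identifiers, Aldoa among the members, deposited values were not whole, so intervals are approximate. An entry without a gene name (18.4 UMIs) and 5 spots without a genotype were left out. The sample titles name biological replicates, whereas the series' design text describes 2 sections through calluses embedded together, which was followed here. Genotypes came from the authors' annotation, and labels and fracture-plane distances of 1344 spots from their supplement.

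Here UMIs were summed over the spots of a region and divided by all their UMIs (CPM), with exact 95% Poisson and binomial intervals. Regions came from Leiden clustering (leidenalg 0.10.2, Python 3.11.15, scipy 1.17.1) on 16813 genes detected in at least 0.3% of spots, with 20 components, 15 neighbors and resolution 0.5, leaving out 89 listed genes of these pathways, and gave 14 clusters. Ratios were called at 1.5-fold with at least 50 UMIs in each section. The rule was tested on simulated data for immature cartilage over woven bone with 8500 genes, and 96.0% of genes raised 2-fold and 91.1% of genes lowered to 0.5 were called. For cartilage interior over border these shares were 88.0% and 92.7%. For Nf1Postn over control in the Cadm4-Cxcl14 region they were 84.0% and 94.4%. The simulated counts had Poisson error alone, with no added spread between spots or sections. The genes named were all members, and of the other pathway genes the 5 called with the largest ratio each way, of which some are printed. The members and lists were chosen with earlier results of these data known. Alternatives changed the fold, UMI minimum, scaling, clustering, spot labels, thinning and sections used.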

Additional observations from a re-analysis of the deposited data

How the results depend on the processing

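All ratios are log2, the main value stands in brackets where it is printed, and each rests on 1 mouse. Member counts under an alternative stand without the number tested or the share of all genes called. They show only how the count moved. In control regions, averaging log2(CPM + 1) over spots gave the hypoxia response -0.34 for hypertrophic cartilage over woven bone [0.65], 1.26 for immature cartilage over woven bone [0.80], 1.37 over the Gpnmb-Fbn2 region [1.00] and -0.50 for regenerating muscle over woven bone [0.10]. Clustering on all genes gave 0.56 and 0.86 for immature cartilage over woven bone and the Gpnmb-Fbn2 region and 0.50 for glycolysis over woven bone [0.69]. With the authors' spot labels the hypoxia response was 1.36 in cartilage over woven bone, where glycolysis was 0.79. In section 1, 76.9% of hypertrophic cartilage spots had the cartilage label, and 55.6% of immature cartilage spots were labelled ossifying perichondrium. These labels thus do not check immature cartilage alone. Ossifying perichondrium stood in for the Gpnmb-Fbn2 region but also held immature cartilage spots. Over it, the hypoxia response was 1.38 and the muscle isoforms 0.26 [-1.12]. The median over members gave glycolysis 0.94 for immature cartilage [0.69] and 0.58 for regenerating muscle over woven bone [0.85], and the hypoxia response 0.13 for hypertrophic cartilage over woven bone [0.65] and 0.80 for immature cartilage over the Gpnmb-Fbn2 region [1.00]. TMM factors, which rescale for strongly expressed genes and were added here after seeing the data, gave immature cartilage over woven bone 0.93 for glycolysis and 1.04 for hypoxia response, over the Gpnmb-Fbn2 region 1.14 and 1.496, and regenerating muscle 0.71 and -0.038. Member counts for immature cartilage over woven bone were 6 higher and 3 lower at 200 UMIs, 1 lower at a fold of 2 and 2 lower with TMM. For the cartilage interior, with these limits chosen after seeing the data, they were 2 higher at a fold of 2, 0 at 200 UMIs and 10 with TMM, and over all spots of Nf1Postn 4 higher and 2 lower at a fold of 2 and 5 higher with TMM.

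Leaving out each section in turn gave, for interior over border, 0.73 to 1.36 for the hypoxia response, 0.40 to 0.91 for glycolysis, 6 to 14 members higher and 1 to 1 lower. It gave 0.60 to 0.71 for glycolysis in immature cartilage over woven bone, 5 to 7 members lower over all spots of Nf1Postn, and, for Nf1Postn over control, -0.36 to 0.066 (glycolysis) and -0.54 to 0.16 (hypoxia response) in the Mmp3-Il1rn region and -0.12 to 0.10 (glycolysis) in the Sost-Bglap region. Within regions, Nf1Postn over control was -0.39 for glycolysis and -0.61 for hypoxia response in the Gpnmb-Fbn2 region at a clustering resolution of 0.3, and 0.28 for glycolysis in the Sost-Bglap region, where TMM gave -0.22. Spots thinned to 1000 UMIs gave 0.18 for hypoxia response in the Cadm4-Cxcl14 region and 0.26 for glycolysis in regenerating muscle, which was 0.25 at a resolution of 1. Averaged logs gave the hypoxia response -1.33, -0.33 and -0.83 in the Mmp3-Il1rn and Sost-Bglap regions and regenerating muscle. The values of -1.33, -0.83 and, in the Gpnmb-Fbn2 region, -0.61 passed 1.5-fold. Outside the muscle regions the all-spot ratios were -0.13 for glycolysis [0.79] and -0.31 for hypoxia response [0.05]. By the fracture plane, the nearest over the farthest tercile of spots gave glycolysis 0.60, cartilage, ossifying perichondrium and progenitor spots gave 1.25, 0.67 and 0.50, the hypoxia response was 2.02, 0.62 and 0.27, and the muscle isoforms were 0.049 within progenitor spots [-1.48]. The causes were not tested. No paired analysis was possible because both sections were cut through the same 2 calluses, 1 of each genotype, and no test was run.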
